A study of Mus musculus with 10 samples.

Results

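A group of 10 genes of the cardiac Z-disc and of LIM domain proteins bound to it was followed in the left atrium of adult mice labelled wild type or knockout for Tbx5, a cardiac transcription factor of the T-box family. They were Actn2, Flnc, Tcap, Myoz2, Ldb3, Pdlim5, Synpo2l, Csrp3, Fhl1 and Fhl2, and they make up 10 of the 23337 genes in the count table. These genes were chosen by name as a functional group. Both this choice and that of the comparison lists used below were made with earlier results of these data known. All 10 entered the tests, with 13191 genes in all. The Z-disc is the protein plate at the edge of each sarcomere in which actin filaments of neighbouring sarcomeres are cross-linked by alpha-actinin. PDZ-LIM and LIM-only proteins dock on it, and several of them also enter the nucleus or bind signalling enzymes, so the Z-disc is studied in the heart as a site where mechanical load is sensed. Mutations in many of these genes are known causes of human cardiomyopathy.

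Left atria gave 10 RNA sequencing libraries, 4 labelled control (Tbx5 +/+, wild type) and 6 labelled knockout (Tbx5-/-), each from its own animal. In the knockout, Cre recombinase under the ubiquitous R26 promoter was activated by tamoxifen, 0.167 mg per day for 3 days by intraperitoneal injection, to remove exon 3 of Tbx5, and atria were collected 1 week later. Both groups were of mixed C57B6 and 129 background, aged 8 to 10 weeks by the sample labels and 6 to 8 weeks by the protocol, and the labels do not state whether controls carried Cre or received tamoxifen. Each group held both sexes, with 2 female and 2 male controls (F1, F2, M1, M2) and 3 female and 3 male knockouts (F1 to F3, M1 to M3). Controls were sequenced to between 5701670 and 7697556 counted reads and knockouts to between 5789632 and 7355782. The count of Tbx5 over the whole gene was higher in the libraries labelled knockout, 1952 ± 336 normalized counts (SD, n = 6) against 939 ± 125 (SD, n = 4). A whole-gene count does not measure the loss of exon 3, so every direction given here rests on the labels. Levels are normalized read counts, the raw count divided by a size factor for each library. A log2 fold change is knockout over control with its standard error, and a gene was called changed at a Benjamini-Hochberg adjusted p under 0.05 in edgeR's quasi-likelihood test over all 13191 genes.

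In the knockout libraries 5 genes rose, namely Fhl1, Flnc, Csrp3, Actn2 and Pdlim5. None of the 10 fell, and Synpo2l, Tcap, Ldb3, Myoz2 and Fhl2 did not pass the test. Among all tested genes 42.6% were called, 20.8% higher and 21.8% lower, so 5 of 10 called higher and 0 of 10 called lower stand beside that background. The median log2 fold change of the 10 genes was 0.42, and 7 of the 10 values were above 0. In 4 genes (Fhl1, Flnc, Actn2 and Pdlim5) the lowest knockout was above the highest control, which was so for 16.3% of all tested genes. The reverse held for none of the 10 and for 15.0% of all genes. The 10 genes together held 0.688% to 0.796% of all counted reads in the controls and 0.965% to 1.08% in the knockouts, and these ranges did not overlap. In whole tissue, a change in the number of cells of a type and a change in RNA per cell cannot be told apart.

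**Figure D1:**
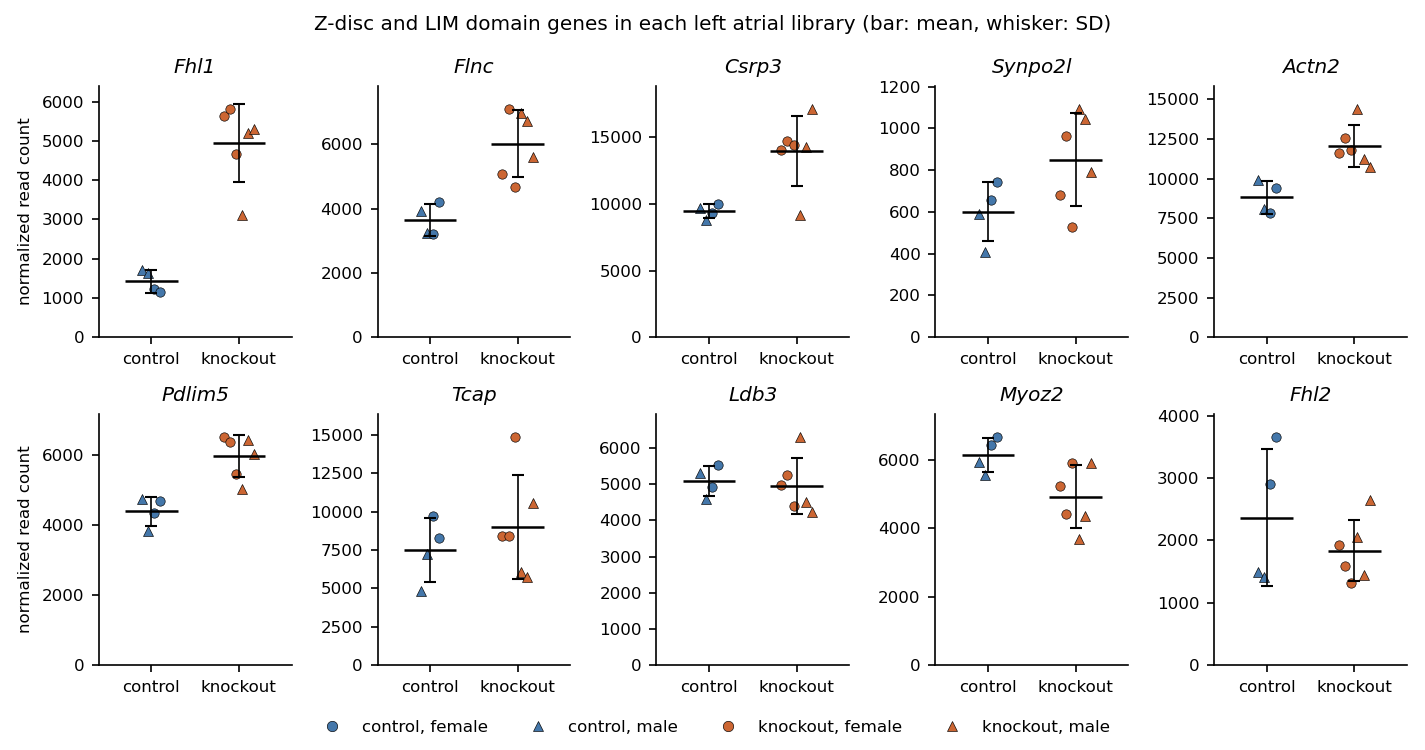
Normalized read counts (y axis, linear, starting at 0) of the 10 genes in each library, by group (x axis), with circles for female and triangles for male libraries; bars are means and whiskers SD (4 controls, 6 knockouts). The knockout points lie wholly above the control points for Fhl1, Flnc, Actn2 and Pdlim5, and 1 male knockout lies among the controls for Csrp3.

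Promoter sequences from RefSeq (GRCm38.p6) were read for 9 of the 10 genes, in 16 windows of 250 bases before and 50 bases after a transcription start. Tcap was not matched. The 3 stretches below are shown because Fhl1 had the largest change, its paralog Fhl2 did not follow it, and Csrp3 had the only window with the letters of a T-box site, the kind of site that Tbx5 binds. Capitals mark the motif, and each stretch ends at the base before a start.
Fhl1, chrX:56779533-56779682, plus strand, CArG box in capitals: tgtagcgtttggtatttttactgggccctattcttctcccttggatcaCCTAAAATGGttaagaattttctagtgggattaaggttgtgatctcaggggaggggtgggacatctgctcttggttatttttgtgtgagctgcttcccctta
Fhl2, second start, chr1:43163962-43164111, minus strand, CArG box in capitals: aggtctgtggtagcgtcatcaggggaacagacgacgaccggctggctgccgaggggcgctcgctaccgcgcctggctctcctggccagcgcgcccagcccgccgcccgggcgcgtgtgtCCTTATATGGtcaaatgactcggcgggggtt
Csrp3, second start, chr7:48843672-48843921, minus strand, T-box letters AGGTGT in capitals: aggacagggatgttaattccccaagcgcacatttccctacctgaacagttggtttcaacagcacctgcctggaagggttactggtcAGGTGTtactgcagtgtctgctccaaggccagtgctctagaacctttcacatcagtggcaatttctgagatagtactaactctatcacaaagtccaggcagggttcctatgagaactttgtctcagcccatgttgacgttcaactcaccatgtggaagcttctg
None of these 3 stretches overlaps an exon annotated in GENCODE M21.

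A set of 5 motifs was searched on both strands of each window. The T-box letters AGGTGT occurred in 1 of 16 windows of these genes, 164 to 159 bases before the second Csrp3 start, and in 13.7% of all 32851 promoter windows. The CArG box, the site of serum response factor, occurred in 5 of the 16 windows and in 1.63% of all windows. Those 5 windows held 4 distinct sites in 3 genes, since overlapping windows of Ldb3 share a site. The Fhl1 box lay 102 to 93 bases before the start, and the Fhl2 boxes lay 96 to 87 bases before the first start and 31 to 22 bases before the second. The MEF2 box, bound by MEF2 factors in muscle, occurred in 2 windows, those of Myoz2 and Synpo2l, and in 0.557% of all windows. The GATA letters AGATAA were found in 1 window (Fhl2; 11.2% of all windows) and the M-CAT letters CATTCC in 2 overlapping windows of Flnc that share 1 site (14.7% of all windows). All 150 bases before the first Fhl2 start, which hold its CArG box and the GATA match, lay in exon annotated in GENCODE M21. No matches of different motifs overlapped. A match describes the sequence and is no evidence of binding, and genes with a CArG box included one that rose (Fhl1) and 2 that did not pass the test (Fhl2 and Ldb3).

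Actin cross-linkers came first by role. Actn2 encodes alpha-actinin-2, the main actin cross-linker of the cardiac Z-disc (chr13:12269426-12340760, minus strand). Its level was 9926, 8073, 7842 and 9417 normalized counts in controls M1, M2, F1 and F2. In the 6 knockouts it ran from 10737 over a median of 11714 to 14406. Every knockout library was above the highest control, with male knockout M1 the highest of all. Actn2 rose from a mean of 8815 ± 1016 (SD, n = 4) to 12067 ± 1300.2 (SD, n = 6), which is 1.35-fold, a log2 fold change of 0.43 ± 0.11 (adjusted p = 0.00665). In a test against a fold of 1.2 the rise did not pass (adjusted p = 0.0781), and correcting for gene length and GC content lowered it to 0.26 (adjusted p = 0.0438).

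Flnc encodes filamin C, the muscle filamin that links actin at the Z-disc and at the membrane (chr6:29433256-29461883, plus strand). Controls M1, M2, F1 and F2 held 3918, 3237, 3205 and 4208 normalized counts. Knockouts ran from 4672 over a median of 6167 to 7108, again with no overlap, and the lowest 2 of them were female. Flnc rose from 3642 ± 501 (SD, n = 4) to 6024 ± 1047 (SD, n = 6), or 1.63-fold, a log2 fold change of 0.70 ± 0.14 (adjusted p = 0.00106). It passed the test against a fold of 1.2 (adjusted p = 0.00569).

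None of the next Z-disc genes, Tcap, Myoz2 and Synpo2l, passed the test. Tcap encodes telethonin, which joins the ends of titin molecules at the Z-disc (chr11:98383811-98384953, plus strand). Its 4 controls M1, M2, F1 and F2 held 4796, 7271, 9747 and 8293 normalized counts. Its 6 knockouts spanned 5724 to 14904 around a median of 8407, so the groups overlapped widely. Males M1 and M2 were lowest in each group, female knockout F3 was highest and male knockout M3 was next with 10589. The means were 7527 ± 2085 (SD, n = 4) and 9021 ± 3384 (SD, n = 6), with a log2 fold change of 0.24 ± 0.26 (adjusted p = 0.481). That value was 0.058 without knockout F3, 0.094 without control M1, 0.41 without control F1 and 0.0014 when corrected for gene length and GC content. The knockout spread of Tcap was the widest of the 10 genes in absolute counts.

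Myoz2 encodes myozenin-2, or calsarcin-1, which tethers the phosphatase calcineurin to alpha-actinin (chr3:123006206-123035015, minus strand). Control levels were 5941, 5560.0, 6430.4 and 6691 normalized counts in M1, M2, F1 and F2. Knockout levels ran from 3685 over a median of 4841 to 5929. The other 4 knockouts lay below the lowest control, and female F3 and male M3 lay within the control range. The means were 6156 ± 504 (SD, n = 4) and 4932 ± 919 (SD, n = 6), a log2 fold change of -0.34 ± 0.14 that missed the threshold (adjusted p = 0.0599). It passed without knockout F3 (-0.38, adjusted p = 0.0358), without knockout M3 (-0.40, adjusted p = 0.0284) and with limma-voom (-0.36, adjusted p = 0.0465). Corrected for gene length and GC content it was -0.18 (adjusted p = 0.243), and with scaling to library size alone -0.21 (adjusted p = 0.187).

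Synpo2l encodes an actin-binding protein of striated muscle, CHAP, that sits at the Z-disc (chr14:20658946-20668354, minus strand). It had 590.1, 409.8, 658 and 745 normalized counts in controls M1, M2, F1 and F2. Knockouts ranged from 527 over a median of 877 to 1093. The groups overlapped, with control M2 lowest of all and male knockouts M1 and M2 highest. From 601 ± 142 (SD, n = 4) to 850.3 ± 222 (SD, n = 6), the log2 fold change was 0.48 ± 0.20, which missed the threshold (adjusted p = 0.0692). The call was made without control F2 (0.62, adjusted p = 0.0416), without knockout F3 (0.61, adjusted p = 0.0144), with DESeq2 (0.50, adjusted p = 0.0454), with upper-quartile scaling (0.53, adjusted p = 0.0461), with scaling to library size alone (0.63, adjusted p = 0.0229) and with no filter on low counts (0.51, adjusted p = 0.045).

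Both PDZ-LIM proteins of the group bind alpha-actinin through a PDZ domain and signalling proteins such as protein kinase C through LIM domains. Pdlim5, also called ENH, lies at chr3:142239590-142395696 on the minus strand. Controls M1, M2, F1 and F2 had 4737, 3834, 4351 and 4689 normalized counts. Knockouts ran from 5025 over a median of 6223 to 6539, all above the controls, the nearest being male knockout M1. Pdlim5 rose from 4403 ± 417 (SD, n = 4) to 5985 ± 612 (SD, n = 6), 1.34-fold, with a log2 fold change of 0.42 ± 0.11 (adjusted p = 0.00582). Against a fold of 1.2 the rise did not pass (adjusted p = 0.0806), and corrected for gene length and GC content it was 0.66 (adjusted p = 0.000264).

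Ldb3 encodes the other one, Cypher or ZASP (chr14:34526603-34588682, minus strand). Its control levels were 5320.4, 4604, 4916 and 5539 normalized counts in M1, M2, F1 and F2. Knockout levels lay between 4238 and 6319.9 around a median of 4738, on both sides of the control range. The means of 5095 ± 416 (SD, n = 4) and 4951 ± 771 (SD, n = 6) gave a log2 fold change of -0.066 ± 0.12 (adjusted p = 0.689). The sign changed with scaling to library size alone (0.078) and without control F2 (0.00094). Pdlim5 and Ldb3 share a domain plan, and the difference between their fold changes was not tested.

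LIM-only proteins carry LIM zinc-finger domains and no PDZ domain. Csrp3 encodes muscle LIM protein, a Z-disc and nuclear protein studied as part of stretch sensing in cardiomyocytes (chr7:48830398-48848033, minus strand). Controls M1, M2, F1 and F2 held 9728, 8797, 9309 and 10031 normalized counts. Knockouts ran from 9195 over a median of 14363 to 17137. Of the 6 knockouts 5 were above the highest control, while male knockout M1 was within the control range. Csrp3 rose from 9466 ± 536 (SD, n = 4) to 13974 ± 2597 (SD, n = 6), 1.45-fold, a log2 fold change of 0.54 ± 0.14 (adjusted p = 0.00835). Without knockout M1 the value was 0.65 (adjusted p = 0.000188).

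Fhl1 encodes an FHL-family LIM protein that binds titin and is known to rise in cardiac hypertrophy (chrX:56731787-56793346, plus strand). Controls M1, M2, F1 and F2 had 1710.0, 1647, 1217 and 1141 normalized counts. The knockouts spanned 3099 to 5815 around a median of 5252, and the lowest of them, male knockout M1, was still far above the highest control. Fhl1 rose from 1429 ± 291 (SD, n = 4) to 4953 ± 990.1 (SD, n = 6), 3.41-fold, the largest change of the 10 genes. The log2 fold change was 1.77 ± 0.18 (adjusted p = 7.74e-06). It lay between 1.70 and 1.89 when any 1 library was left out.

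Fhl2 encodes the most studied cardiac protein of the same family, which binds titin and several transcription regulators (chr1:43123074-43196984, minus strand). Controls M1 and M2 held 1486 and 1405 normalized counts, and controls F1 and F2 held 2896 and 3662. Knockouts lay between 1308 and 2639.9 around a median of 1760.5. The groups overlapped, and 4 of the 6 knockouts lay above both male controls and below both female controls. Means of 2362 ± 1104 (SD, n = 4) and 1828 ± 489 (SD, n = 6) gave a log2 fold change of -0.39 ± 0.26 (adjusted p = 0.248). Without control F2 it was -0.076 (adjusted p = 0.838).

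The authors' deposited table gave the same set of rises with 1 addition. In it, 6 of the 10 genes were higher and 0 lower at an adjusted p under 0.05, where 18.7% and 17.8% of the genes with an adjusted p in the authors' deposited table were. The addition was Synpo2l (log2 fold change 0.48, adjusted p = 0.0452 in the authors' deposited table). For Fhl1 the authors' deposited table lists a log2 fold change of 1.73.

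The level of each gene was also put on a common scale, normalized counts per kilobase of exon, so that genes could be ordered. In controls Tcap was highest with 7940 ± 2199 per kb (SD, n = 4), then Csrp3 with 3544 ± 200.5, Actn2 with 2323 ± 268, Myoz2 with 1798 ± 147 and Fhl2 with 1245 ± 582. Below them stood Ldb3 with 835 ± 68.2 per kb, Pdlim5 with 496 ± 46.9, Flnc with 387 ± 53.2, Fhl1 with 385 ± 78.4 and Synpo2l with 130 ± 30.7. Neighbours in this order whose control ranges overlapped were Myoz2 and Fhl2, Fhl2 and Ldb3, Pdlim5 and Flnc, and Flnc and Fhl1. In the knockouts the order of the first 4 genes was the same, and Fhl1 moved from place 9 to place 5 with 1334 ± 267 per kb (SD, n = 6). Fhl2, at 964 ± 258 per kb, was then in place 6. The knockout ranges of all neighbours in the order overlapped except Actn2 with Myoz2 and Flnc with Synpo2l. With the length of the longest transcript in place of the exon total, Fhl1 stood in place 8 in controls and again in place 5 in knockouts. On that scale Pdlim5 was at 878 per kb in controls and 1193 in knockouts, where it took place 6, ahead of Fhl2 in place 7 and Ldb3 in place 8.

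Related genes were next compared within each library as ratios of reads per kilobase of exon, which do not depend on scaling between libraries. In all 7 ratios were computed, each tested by an exact two-sided permutation of the difference in mean log2 ratio over all 210 assignments, where the smallest possible p is 0.00476. The Fhl1 to Fhl2 ratio was 0.588, 0.598, 0.215 and 0.159 in controls M1, M2, F1 and F2. In the knockouts F1, F2 and F3 it was 1.49, 1.87 and 1.82, and in M1, M2 and M3 it was 0.770, 1.84 and 1.03. No knockout overlapped a control, and Fhl1 exceeded Fhl2 in 5 of the 6 knockouts and in no control. The ratio was 4.21-fold higher in the knockouts, a log2 difference of 2.07 (exact permutation p = 0.00476, adjusted p = 0.0167 over 7 ratios).

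Actn1, a non-muscle alpha-actinin, rose relative to Actn2. Its ratio to Actn2 was 1.38% to 2.32% in controls and 2.91% to 5.19% in knockouts, with no overlap and a log2 difference of 1.05 (exact permutation p = 0.00476, adjusted p = 0.0167). Csrp1, the smooth-muscle relative of Csrp3, stood at 4.73% to 7.13% of Csrp3 in controls and 5.89% to 8.85% in knockouts. Those ranges overlapped, and the log2 difference of 0.50 passed (exact permutation p = 0.0143, adjusted p = 0.0333). It no longer passed when control M1, control F1 or any knockout except M3 was left out (adjusted p from 0.0556 to 0.0741). The Synpo2 to Synpo2l ratio was lower by a log2 difference of -0.55 that missed the threshold after adjustment (exact permutation p = 0.0476, adjusted p = 0.0833), and without control F2 it passed (-0.71, adjusted p = 0.0417). Flna over Flnc differed by 0.25 (exact permutation p = 0.176, adjusted p = 0.247) and Pdlim7 over Pdlim5 by 0.24 (exact permutation p = 0.224, adjusted p = 0.261). Myoz1 had only 2 to 11 raw reads per library, so its ratio to Myoz2, with a difference of 0.17 (exact permutation p = 0.814, adjusted p = 0.814), is limited by depth.

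**Figure D2:**
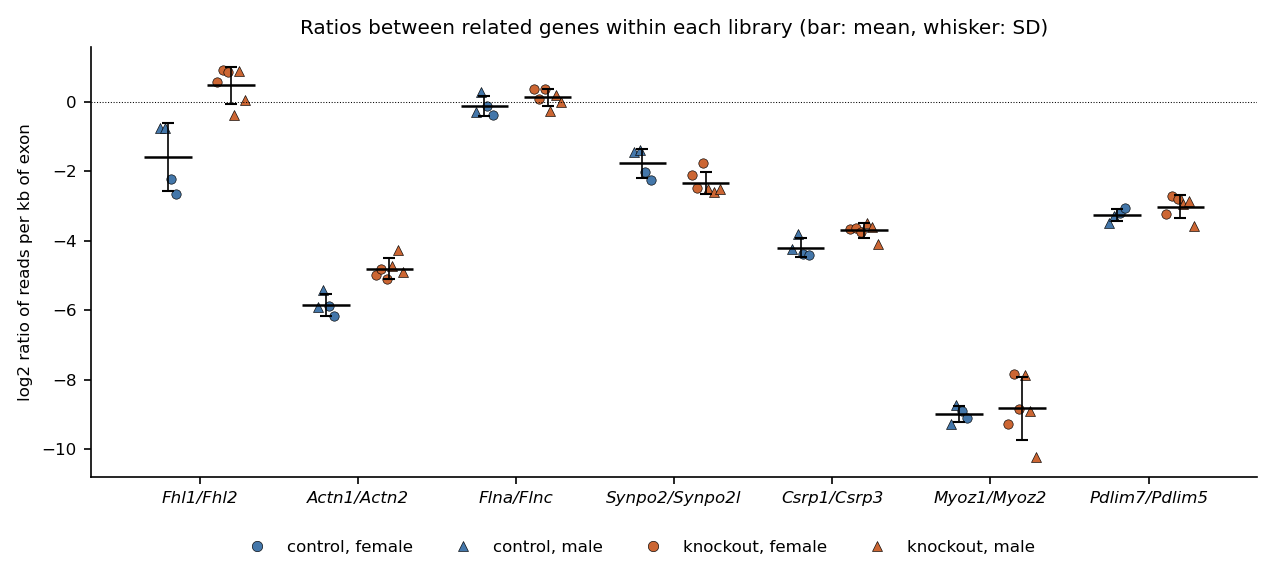
Log2 ratio of reads per kilobase of exon between related genes (y axis) in each library, for 7 pairs (x axis), with controls blue and knockouts orange, circles female and triangles male; bars are means and whiskers SD. The groups do not overlap for Fhl1/Fhl2 (log2 difference 2.07) and Actn1/Actn2 (1.05), and the dotted line marks equal reads per kilobase.

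Whether the knockout effect differed between females and males was tested with an interaction term in a model of sex and group. In edgeR 0 of the 10 genes passed (27 of 13191 genes did, 0.205%), with 3 of the 10 at an unadjusted p under 0.05, namely Fhl2, Synpo2l and Fhl1, where 943 of all genes (7.15%) were. With DESeq2, 1 of the 10 passed (Fhl2), where 0.508% of 15366 genes did. In the edgeR model fold changes had the same sign in both sexes in 9 of the 10 genes, the exception being Fhl2. That count includes values near 0, Ldb3 in males (-0.0054 ± 0.18) and Synpo2l in females (0.020 ± 0.23). Fitted on each sex alone, Ldb3 was 0.013 in males and -0.12 in females.

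Fhl2 in females fell from 2896 and 3662 normalized counts in the controls to 1308, 1590.0 and 1931 in the knockouts. These did not overlap, and the log2 fold change within females was -1.05 ± 0.23 (adjusted p = 0.00437, edgeR). In males the controls had 1405 and 1486 and the knockouts 1444, 2056 and 2639.9, so they overlapped, with a log2 fold change of 0.48 ± 0.23 (adjusted p = 0.147). The male minus female difference was 1.53 ± 0.33, with an adjusted p of 0.102 in edgeR and 0.00174 in DESeq2. It passed in edgeR without knockout M2 (1.74, adjusted p = 0.0252). Within the controls the male minus female log2 difference was -1.19 ± 0.25 (adjusted p = 0.106), and within the knockouts it was 0.34 ± 0.21 (adjusted p = 0.783).

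Synpo2l gave a log2 fold change of 0.020 ± 0.23 within females (adjusted p = 0.957) and rose by 0.95 ± 0.24 within males (adjusted p = 0.0113). The difference between the sexes was 0.93 ± 0.33 and did not pass (adjusted p = 0.505). Fhl1 rose in both sexes, by 2.16 ± 0.22 in females (adjusted p = 4.16e-05) and by 1.41 ± 0.21 in males (adjusted p = 0.000706). That difference of -0.75 ± 0.29 did not pass either (adjusted p = 0.59). Flnc also rose in both, by 0.57 ± 0.20 (adjusted p = 0.0451) and 0.82 ± 0.20 (adjusted p = 0.00936). Each sex has only 2 controls, and Actn2, Csrp3 and Pdlim5, each called over all libraries, gave log2 fold changes of 0.41 to 0.55 in either sex with adjusted p-values of 0.0645 to 0.0948 in this model. Fitted on the female libraries alone, all 3 passed, Actn2 with 0.45 (adjusted p = 0.0196), Csrp3 with 0.55 (adjusted p = 0.00501) and Pdlim5 with 0.42 (adjusted p = 0.0247). Fitted on the male libraries alone, none of the 3 passed. There Actn2 gave 0.43 (adjusted p = 0.196), Csrp3 0.54 (adjusted p = 0.194) and Pdlim5 0.44 (adjusted p = 0.147). Counted within females 2 of the 10 genes were higher and 1 lower, where 13.5% and 14.7% of all tested genes were, and within males 3 were higher and 0 lower, where 12.8% and 13.2% were. From the female libraries alone 5 of the 10 were higher and 1 lower (17.6% and 19.8% of all genes in that fit). From the male libraries alone 3 were higher, namely Fhl1, Flnc and Synpo2l, and 0 lower (8.14% and 7.48%).

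**Figure D3:**
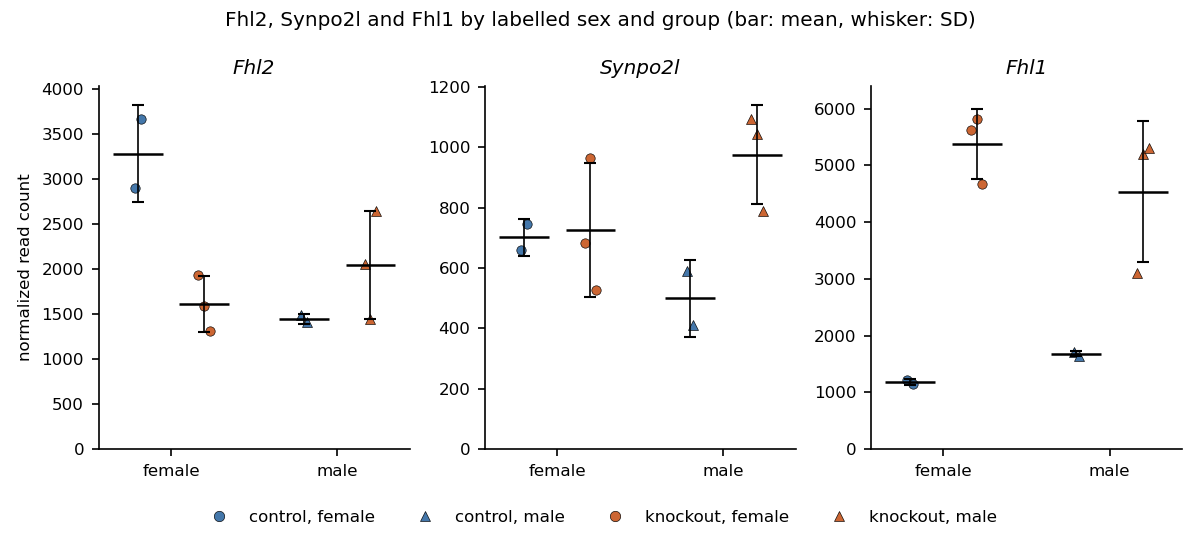
Normalized read counts (y axis, linear, starting at 0) of Fhl2, Synpo2l and Fhl1 by labelled sex (x axis) and group, with bars for means and whiskers for SD (2 controls and 3 knockouts of each sex). Fhl2 is at 2896 and 3662 in female controls and at 1405 and 1486 in male controls, and Fhl1 is higher in every knockout of either sex.

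Other genes of the same families were read from the same fit. Of 19 paralogs of the 10 genes, 16 were tested, and 12 rose, 1 fell and 3 did not pass, with a median log2 fold change of 0.92, where the median over all tested genes was -0.00092. Of all tested genes 20.8% were called higher and 21.8% lower, and these shares also stand beside each list that follows. Actn1 rose from 224 ± 39.8 (SD, n = 4) to 643 ± 150.2 (SD, n = 6), a log2 fold change of 1.49 ± 0.17 (adjusted p = 1.69e-05). Fhl3, another FHL protein, present at a low level, rose from 22.5 ± 4.57 to 71.5 ± 13.3 (log2 fold change 1.62, adjusted p = 2.10e-05). Csrp1 rose from 378 ± 57.6 to 778 ± 102 (1.01, adjusted p = 2.79e-05), Flna, the filamin of non-muscle cells, from 3321 ± 401 to 6529 ± 893 (0.95), and Pdlim7 from 253 ± 39.4 to 410.1 ± 91.8 (0.68). Pdlim4 was the 1 paralog that fell, from 218 ± 37.4 to 94.7 ± 10.5 (log2 fold change -1.23, adjusted p = 7.91e-06). Synpo2 did not pass (489 ± 84.1 and 465 ± 52.2, adjusted p = 0.538). Many of these paralogs are also expressed outside cardiomyocytes.

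Further proteins of the Z-disc and of the titin and actin filaments around it went both ways. Of 23 such genes 7 rose, 9 fell and 7 did not pass, with a median log2 fold change of -0.27. Cmya5, myospryn, fell the most among the named ones, from 11787 ± 2947 (SD, n = 4) to 847 ± 329 (SD, n = 6), 14.1-fold lower (log2 fold change -3.82, adjusted p = 3.57e-07). Nebl, the nebulin-like protein nebulette, fell from 1690.5 ± 353 to 475 ± 112, 3.62-fold lower, and Ttn, titin, from 448113 ± 62205 to 135951 ± 30313, 3.35-fold lower. Xirp1, an actin-binding Xin repeat protein, rose from 1041 ± 146 to 3653 ± 932, or 3.45-fold. The summed level of this list, mostly Ttn, was 423180 to 590021 in controls and 197435 to 293027 in knockouts.

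**Figure D4:**
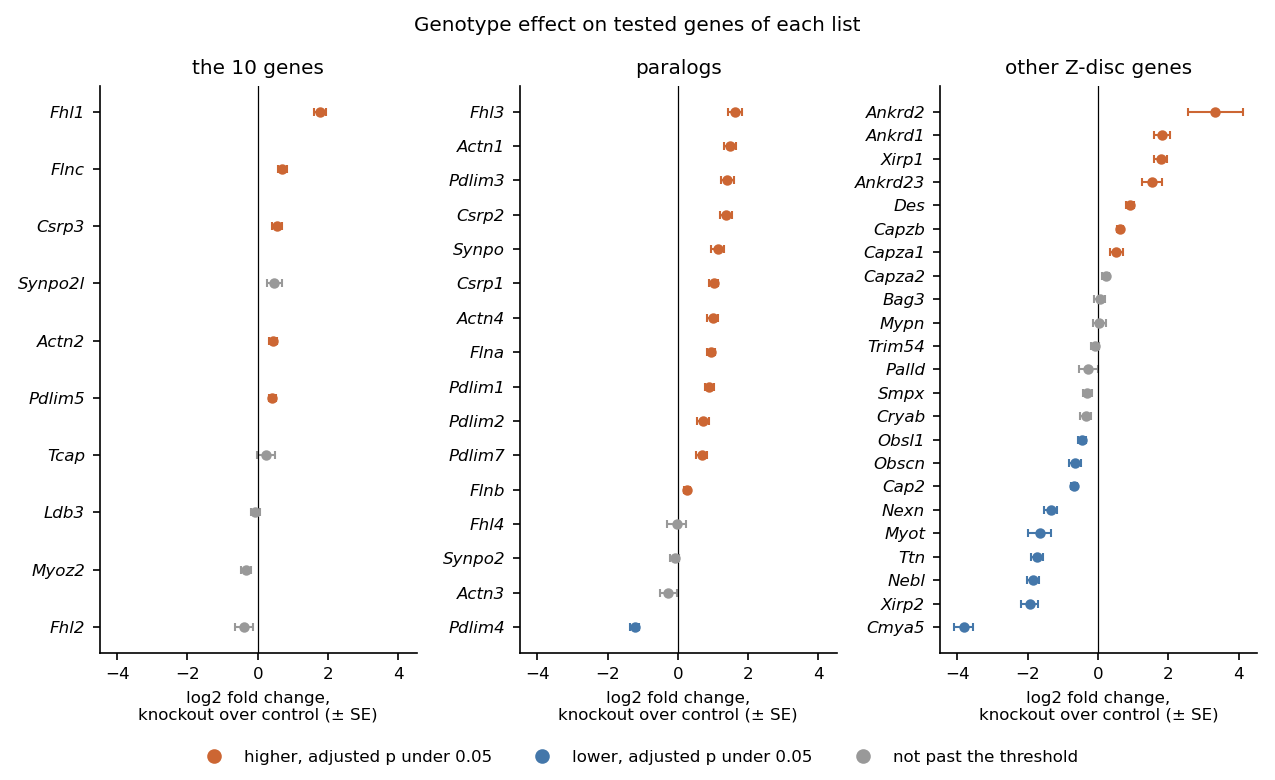
Log2 fold change, knockout over control, with its standard error (x axis) for the tested genes of 3 lists (y axis), coloured by whether the gene passed an adjusted p of 0.05. The 10 genes have 5 calls, all higher, the paralogs 12 higher and 1 lower, and the other Z-disc genes 7 higher and 9 lower.

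Among LIM and focal adhesion genes, of 24 measured genes 10 rose, 4 fell and 10 did not pass, with a median log2 fold change of 0.097. Crip2, a cysteine-rich LIM protein, fell from 3282 ± 249 to 2091 ± 233. Its relative Crip1 rose from 984 ± 255 to 1763 ± 187, and Lmcd1, a LIM protein of heart and smooth muscle, from 132 ± 27.3 to 336 ± 117. Crip1 and Crip2 lie side by side on chromosome 12 and moved in opposite directions.

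Markers of the cell types in the atrium moved with the groups as well. Of 13 cardiomyocyte genes 5 rose and 6 fell, and their summed level was 793788 to 871470 in controls and 478507 to 676369 in knockouts. All 9 macrophage genes tested rose (3820 to 5322 summed against 8325 to 12619), as did 7 of 10 fibroblast genes while 2 fell (45306 to 49148 against 56039 to 71457). Of 10 smooth muscle and pericyte genes 5 rose and none fell (3775 to 4301 against 4801 to 5960), and of 9 endothelial genes 4 rose and 2 fell (11917 to 14433 against 17224 to 19762), the latter 0 without control M1. Each sum is weighted toward its most abundant genes. Vwf alone, of the endothelial list, was at 3567 to 5190 in controls and 7372 to 10149 in knockouts. Nppa, among the cardiomyocyte genes that fell, was at 202850 to 226046 and 47697 to 147827. Mybpc3, among those that rose, was at 12812 to 14650 and 29809 to 35921. Tagln, transgelin, went from 82.6 ± 15.8 to 685 ± 259, while Myh11, the smooth muscle myosin, did not pass (71.6 ± 21.7 and 54.4 ± 20.5, adjusted p = 0.255). Fhl1, Flnc, Csrp1 and Flna are also expressed in smooth muscle or connective tissue cells, and the part of these cell types in the rises was not tested. Skeletal muscle is a source of several of the 10 genes too. Its myosins Myh1, Myh2 and Myh4 averaged at most 1.45 normalized counts in either group. Of 10 skeletal muscle genes 3 were tested, of which 1 fell and 2 did not pass. The 1 that fell was Tnni2, at 22.5, 55.0, 142 and 142 in controls M1, M2, F1 and F2 and 17.1 to 32.3 in knockouts. The summed level was 8319 to 10358 and 8908 to 12682, nearly all Ckm, so it reads that gene and not the list.

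The lowest and highest library of each group were counted over the 10 genes, with no such count over all genes beside it. Control M2 was the lowest control in 6 of the 10 genes and control F2 the highest in 6. Among knockouts, M1 was the lowest in 4 genes and the highest in 3. The groups were scaled by TMM, and scaling to library size alone put the median of the 13191 genes at a log2 value of 0.14 and moved the calls from 2741 higher and 2881 lower to 3942 and 2020. Under that scaling 6 of the 10 genes were called higher, with Synpo2l added, and 0 lower.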

How the data were processed

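RNA from 10 left atria was sequenced as single-end reads of 51 bp after globin depletion, per the labels' protocols, which name both an mRNA kit and ribosomal-depleted RNA. The submitters' processing notes name FastQC, TopHat2 2.0.11, featureCounts, DESeq2 and build mm10. Annotation and strand setting were not given in the sources used here. The authors deposited raw counts per gene and, per the file headers, a normalized signal, checked here to be each count over its library's size factor. The log2 fold changes, fold (FC), test score and p-values that were also deposited come from the authors' comparison of the groups.

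From the raw counts, edgeR 4.0.16 in R 4.3.3 was run with filterByExpr, TMM scaling and quasi-likelihood F-tests, adjusted by Benjamini-Hochberg over 13191 genes and checked on simulated counts. Standard errors were derived from the fold change and the square root of F. The sex effects came from a fit with sex and group. Ratios used raw counts plus 0.5, divided by exon length, and exact permutation tests. Positions and exon lengths came from GENCODE M21 (GRCm38, which is mm10), promoters from RefSeq on GRCm38.p6, and no annotated exon of another gene overlapped the 10 genes. Alternatives were DESeq2 1.42.0, voom in limma 3.58.1, other scalings and filters, covariates, a replicate block, thresholds, GC and length offsets (11948 genes, 90.6% of those tested), each sex alone and each library left out. Replicates were not duplicates, with a chi-square per degree of freedom of at least 4.11 between any 2 of a group. P-values measure the spread between these animals, and no batch or date is given in the labels. Depths of 5701670 to 7697556 reads leave a large counting error for genes of a few reads.

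The 10 genes and the comparison lists were chosen with earlier results of these data known. All 10 genes are named. From each other list the named genes are up to 4 with the smallest adjusted p plus the paralogs used in ratios. Cell type lists are given by counts, sums and up to 3 defining genes, and Ckm and Tnni2 are named besides. A gene that this rule names is not reported here. A comparison of protein sequences was not done.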

Additional observations from a re-analysis of the deposited data

Results flagged for a closer look

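The effect of the knockout on Fhl2 differed between the labelled sexes in DESeq2's interaction test, by 1.53 on the log2 scale (male minus female, adjusted p = 0.00174), while the same test in edgeR missed the threshold (1.53, adjusted p = 0.102). The difference rests on 2 controls of each sex, at 2896 and 3662 normalized counts in females and 1405 and 1486 in males. Its estimate ran from 1.30 to 1.74 in edgeR when each library was left out in turn. In 34 groups of values checked for a library far from the others, 0 were found.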

How the results depend on the processing

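The labels do not pair animals across groups. Same-labelled control and knockout libraries had correlations of their deviations of -0.037, 0.17, -0.13 and -0.051, and only M2 correlated best with its own label. With a replicate block 5411 of 13191 genes were called, and 6 of the 10 genes were higher and 1 lower (Myoz2, -0.51). The log2 fold change of Tcap became -0.079 and that of Ldb3 0.010. Knockouts F3 and M3 have no control of the same label, so they carry no weight in the genotype effect of that fit. Its shifts therefore cannot be told apart from those of leaving F3 and M3 out.

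The number of the 10 genes called higher was 3 from male libraries alone and 3 against a fold of 1.2, 1 with an absolute log2 fold change above 1, and 5 to 6 when each library was left out. The number called lower was 1 from female libraries alone (Fhl2). It was 1 with limma-voom and at an adjusted p of 0.1 (Myoz2 in both), and 0 to 1 with a library left out. Over all genes, 2408 to 3042 were called higher and 2301 to 3043 lower with a library left out. All-gene calls for limma-voom and for an adjusted p of 0.1 are not given here. All-gene calls were 2061 (1074 higher, 987 lower) from males, 3592 (1717 and 1875) against a fold of 1.2, and 1533 (826 and 707) above an absolute log2 fold change of 1, where 6 paralogs were higher, 4 other Z-disc genes higher, and 2 adhesion genes higher and 1 lower. From males 2 adhesion genes were higher. The sex interaction was called for 78 genes with DESeq2, 13 with at least 50 counts in at least 4 libraries, and 7 to 77 with a library left out, knockout M3 giving the 77.

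Signs reversed for Ldb3 with library size scaling (0.078), from males (0.013) and across left-out libraries (-0.13 to 0.00094), and for Fhl2 from males (0.50). The near-zero sex interactions crossed 0 with left-out libraries: Actn2 -0.19 to 0.11, Tcap -0.27 to 0.41, Ldb3 -0.074 to 0.22, Csrp3 -0.24 to 0.20, Myoz2 -0.19 to 0.18 and Pdlim5 -0.14 to 0.16 (-0.00025 with the 50-count filter). Left-out libraries gave a ratio difference of 0.44 to 0.63 for Csrp1 over Csrp3, -0.71 to -0.43 for Synpo2 over Synpo2l and -0.028 to 0.45 for Myoz1 over Myoz2. The cause of these shifts was not tested. A single sex leaves 2 controls, and Myoz1 had at most 11 reads per library.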
